A study of Mus musculus with 2 samples.

Results

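Among melanocyte stem cells (McSCs) of early-anagen hair follicles, the cells highest in immediate early genes were set apart and described against the cells lowest in them. Immediate early genes are the first to be transcribed when a cell receives a signal or a stress, without new protein synthesis. They include *Fos*, *Fosb*, *Jun* and *Junb*, whose proteins pair to form the AP-1 transcription factor, *Egr1*, a zinc-finger factor, and *Ier2*, a nuclear protein of the same early response. The members were chosen by the summed share of these 6 genes among a cell's unique molecular identifiers (UMIs, each 1 captured transcript). The top 10% of the eligible cells, 278 of 2785, are called IEG-high cells here, the bottom 50%, 1392 cells, IEG-low cells, and the 1115 cells in between served to show the gradient.

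Both libraries of the series were made from mice that carry Dct-rtTA; tetO-H2B-GFP, and back skin was the source. In these mice a doxycycline-containing diet, given for 4 days, switched on a nuclear green fluorescent protein in cells that used the *Dct* promoter. Early-anagen cells, labelled activated melanocyte stem cells, were taken 4 days after depilation of mice 8 weeks old. The other library, labelled differentiated melanocytes, came from microdissected bulbs of anagen VI follicles of mice 5 weeks old. GFP-positive, DAPI-excluding cells were sorted, and the cells of 4 mice were combined in each library with no map from cell to mouse. Each condition is therefore 1 sample, no test between samples is possible, and the intervals given below are exact Poisson intervals that cover counting error only. Skin was digested in warm trypsin for the early-anagen library, and in warm EDTA followed by collagenase and dispase for the bulbs. Depilation is described for the early-anagen mice only. Dissociation, reagent kit, age, depilation and hair cycle stage thus cannot be told apart between the libraries.

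Of 11010 early-anagen barcodes, 3769 held more than 10000 UMIs, 3464 of these had under 5% mitochondrial UMIs, 3438 of these held at least 1 *Dct* UMI and 2785 of these held fewer than 3 UMIs of *Krt10* and *Krt14* together. The 2 libraries hold 15337 barcodes in all, and 1 barcode sequence occurs in both. The sort and the label were checked against marker genes. The 8 melanocyte markers, *Dct* among them, summed to 26430 UMIs per 1000000 (CPM) in IEG-high cells, 25169 in the cells between and 25642 in IEG-low cells. Fibroblast markers summed to 1.08 and 1.51 CPM in IEG-high and IEG-low cells, the 4 endothelial markers had no UMI in IEG-high cells, and 9 immune markers summed to 33.1 and 36.9 CPM, with *H2-Aa* the most abundant in IEG-high cells and *Cd74* in IEG-low cells. Of the Schwann cell markers, *Pmp22* stood at 142 and 124 CPM in IEG-high and IEG-low cells, while *Mbp* was at 0.36 CPM in IEG-high cells. Keratinocyte markers were low but differed. The 14 genes summed to 141 CPM in IEG-high cells, 86.7 between and 66.1 in IEG-low cells, with 13 of them under 20 CPM over all eligible cells and *Col17a1* and *Trp63* at 0 in the thinned counts of IEG-high cells. *Lgals7*, the most abundant, stood at 66.9 and 26.7 CPM, and 1 IEG-high cell held 44.6% of that group's *Lgals7* UMIs. *Perp* stood at 16.2 and 3.45 CPM (log2 ratio 2.23, 1.61 to 2.85) and *Krt79* at 10.1 and 2.51 (2.002, 1.23 to 2.76). With cells compared within 5 bins of total UMIs, the ratios of *Lgals7*, *Perp* and *Krt79* were 0.29 (-0.03 to 0.59), -0.36 (-1.65 to 0.73) and -1.23 (-3.58 to 0.43). The markers did not all behave alike. *Krt10* had a ratio of 0.56 over all depths and still 0.53 within the bins, where its lower limit was 0.04. Within the bins *Krt14* was at 0.39 (-0.57 to 1.26) and *Dsp* at -2.97 (-8.31 to -0.41). The part of keratinocyte transcripts in the other results was not tested. The results for cells with no *Krt10* and no *Krt14* UMI are given with the alternatives.

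The 6-gene share ran from 0 to 1.83% of a cell's UMIs in a single skewed distribution with no gap at either limit. IEG-high cells spanned 0.381 to 1.83%, with a median of 0.539%, which was 104.5 UMIs of the 6 genes in the median cell. IEG-low cells spanned 0 to 0.114%, with a median of 0.0613% and 16 UMIs. The 3 cells just inside the upper limit had shares of 0.3813, 0.3826 and 0.3831%, and the 3 just outside had 0.3807, 0.38 and 0.3781%. Within 10% of the limit lay 40 IEG-high cells and 53 others. The group is thus a range of a continuous score. IEG-high cells were also the shallower cells, with a median of 17663.5 UMIs and 4020 genes against 26994 UMIs and 4823 genes in IEG-low cells. Of the 5 equal bins by total UMIs, the shallowest held 42.1% of IEG-high cells and the deepest held 7.91%. Their median mitochondrial share was 3.29% against 3.02%, and their ribosomal protein share 24.4% against 25.2%. *Malat1*, a nuclear long non-coding RNA, took 1.49% of UMIs in the median IEG-high cell and 0.849% in the median IEG-low cell. Its log2 ratio was 0.74 over all depths and 0.42, inside 1.5-fold, with cells compared within the 5 bins. Before genes were compared, 10000 UMIs were drawn at random from every cell, which does not remove a difference in the kind of cell that goes with depth.

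**Figure D1:**
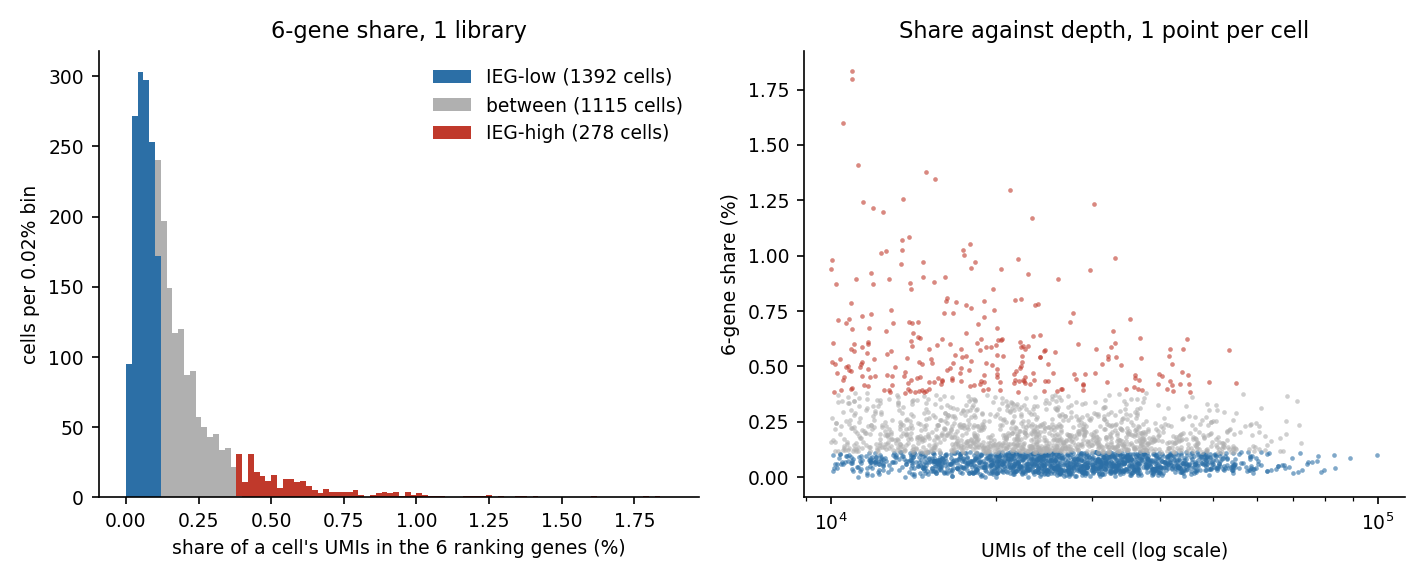
Left, number of cells per bin of the 6-gene share (x axis, % of UMIs) for the 2785 eligible early-anagen cells, coloured by group. Right, the same share against the UMIs of each cell on a log axis, 1 point per cell. The distribution has 1 tail with no gap at 0.381%, and the highest shares lie among the cells with fewer UMIs.

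The 6 genes that ranked the cells did not contribute equally, and their values are a description of the choice, not a result. *Jun* supplied 51.6% of the 6-gene UMIs of IEG-high cells and was the leading gene in 198 of them, *Fos* supplied 27.4% and led in 72, and *Fosb* and *Junb* led in 4 each. *Jun* stood at 3047 CPM in IEG-high cells, 901 between and 249.6 in IEG-low cells. *Fos* stood at 1722, 491 and 115 CPM in the same order, *Egr1* at 205, 43.0 and 9.27, and *Ier2* at 144, 66.8 and 33.4. The median IEG-high cell held 28 *Jun*, 14 *Fos*, 6 *Junb*, 2 *Fosb*, 1 *Egr1* and 1 *Ier2* UMI per 10000. Ranking by *Fos*, *Jun* and *Egr1* alone returned 89.2% of the same IEG-high cells, and ranking by *Fosb*, *Junb* and *Ier2* alone returned 54.3%. The top 10% by these 2 sets of 3 genes shared 43.5% of their cells.

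Across the other genes the difference was concentrated in a small set. Of 5476 genes with at least 20 CPM over all eligible cells, 216 (3.94%) were more than 1.5-fold higher in IEG-high than in IEG-low cells and 153 (2.79%) more than 1.5-fold lower. With another random draw of the 10000 UMIs 221 genes were higher and 169 lower, of which 161 and 124 were the same genes, so that part of the calls depended on the draw. Past 2-fold there were 52 higher (0.95%) and 32 lower (0.584%). The median log2 ratio of all 5476 genes was 0.01. In mean UMIs per cell, with no scaling to a common total, the median of all genes was -0.53, since IEG-high cells held fewer UMIs, and a log2 ratio of CPM is thus a share of the transcripts a cell yielded, not a number of molecules. Among genes of at least 50 CPM the 12 highest ratios belonged to *Hspa1b*, *Hspa1a*, *Hspb1*, *Ccn1*, *Hes1*, *Atf3*, *Rhob*, *Txnip*, *Cebpd*, *Phlda1*, *Dnajb1* and *Klf4*, from 3.63 down to 1.18. *Hes1* reached 50 CPM through the IEG-high cells, with 48.8 CPM over the others. The 12 lowest belonged to *Hells*, *Sap30*, *Pclaf*, *Mcm5*, *Cxcl9*, *Mcm3*, *Cst6*, *Mcm6*, *Rrm2*, *Lig1*, *Cxcl14* and *Ccnb2*, from -1.47 up to -1.17. These counts, like the list counts that follow, describe cells within the library from which the cells were chosen. Each list count is to be read beside the shares over all genes, 3.94% higher and 2.79% lower.

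Other immediate early factors were higher together. Of 20 listed genes that were not used for ranking, 10 passed 20 CPM and all 10 of those were more than 1.5-fold higher, with a median log2 ratio of 1.12 against 0.01 for all genes. *Myc* passed through the IEG-high cells, and with the minimum set over the other cells 9 genes passed, 9 were higher and the median was 1.09. In UMIs per cell the median of the 10 was still 0.60. *Atf3*, a stress-induced member of the ATF/CREB family (chr1:191170296-191218039, GRCm38, minus strand), stood at 650.0 CPM in IEG-high cells, 321 between and 170.04 in IEG-low cells, a log2 ratio of 1.93 (95% interval 1.85 to 2.02). The middle 50% of IEG-high cells held 1 to 8 *Atf3* UMIs per 10000 and that of IEG-low cells 0 to 2, so the groups overlapped. *Jund*, an AP-1 subunit that many resting cells already express, stood at 1431, 915 and 700.1 CPM (1.03, 0.98 to 1.08). *Klf2*, a zinc-finger factor best known from endothelial cells, stood at 184.5, 43.6 and 18.6 CPM (3.31, 3.09 to 3.53). Its difference was carried by a minority, since the median IEG-high cell held 0 *Klf2* UMIs and 10 cells held 39.2% of the group's UMIs. *Klf6* and *Klf4*, relatives of *Klf2*, had log2 ratios of 1.08 and 1.18, *Myc*, a growth-promoting factor, 1.27, and *Nr4a1*, an orphan nuclear receptor of the early response, 1.09. The 10 listed genes under 20 CPM ranged more widely. *Egr2*, a relative of *Egr1*, had a ratio of 2.19 (0.79 to 3.56), *Ier5l* 1.48 (0.77 to 2.16) and *Nr4a3*, a relative of *Nr4a1*, 0.71 (0.33 to 1.08). *Fosl2*, another AP-1 subunit, stood at 12.9 and 15.0 CPM in IEG-high and IEG-low cells, and *Srf*, which encodes serum response factor, at 18.3 and 19.2.

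**Figure D2:**
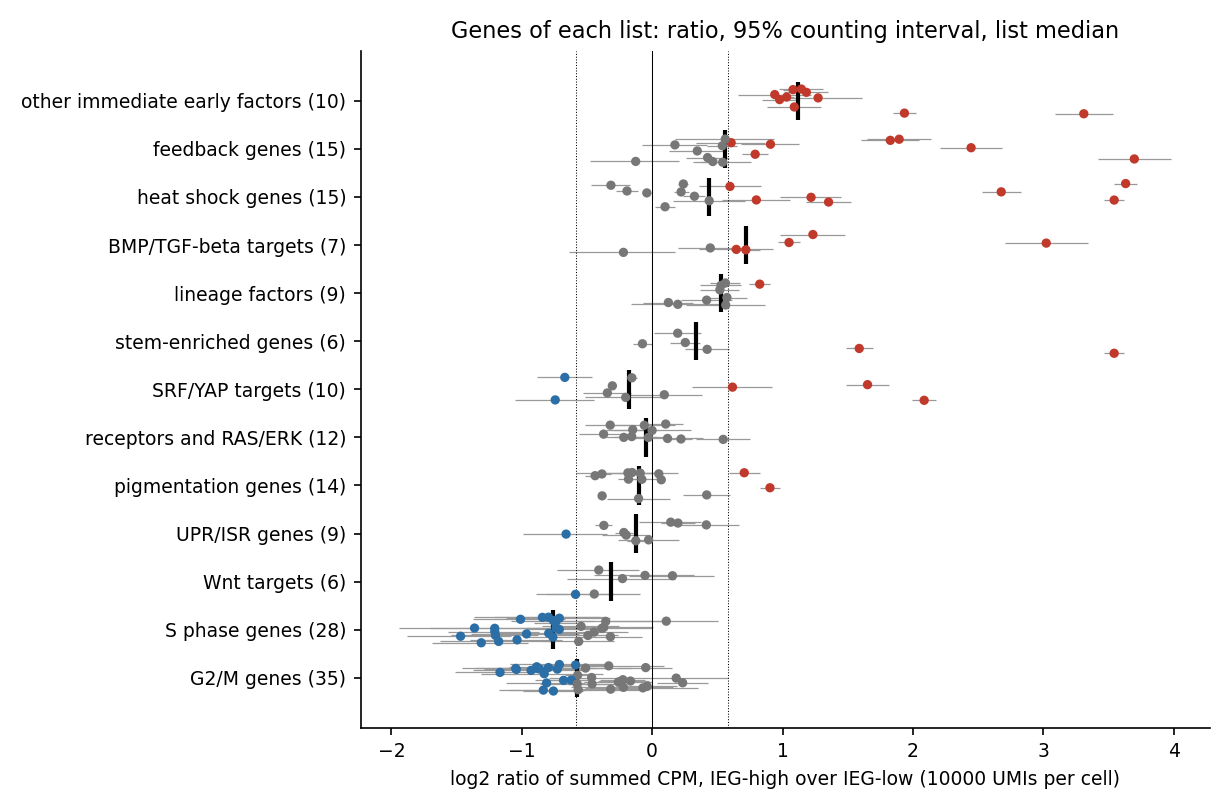
Log2 ratio of summed CPM, IEG-high over IEG-low cells (x axis), for the genes of 13 lists that passed 20 CPM, with the number of genes in brackets. Points are genes, red or blue past 1.5-fold (dotted lines), grey bars are 95% counting intervals and black bars list medians. The 10 immediate early factors all lie right of the dotted line, and the S phase list is centred at -0.76.

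Genes that restrain signalling and early transcripts were higher as well, unevenly. Of 20 such genes, 15 passed 20 CPM, 7 were more than 1.5-fold higher and none more than 1.5-fold lower, with a median of 0.56 that became -0.01 in UMIs per cell, where the median of all genes was -0.53. *Btg2*, which restrains proliferation and promotes shortening of messenger RNA tails (chr1:134075170-134079120, minus strand), stood at 138.8 CPM in IEG-high cells, 38.1 between and 10.7 in IEG-low cells (3.70, 3.42 to 3.98). *Zfp36*, which binds AU-rich elements and marks early transcripts for decay (chr7:28376784-28380253, minus strand), stood at 111, 44.3 and 20.4 CPM (2.45, 2.21 to 2.68). *Dusp1* and *Dusp6*, phosphatases that switch off MAP kinases, had log2 ratios of 1.83 and 1.89. *Spred1*, *Ppp1r15a* and *Dusp10* had ratios of 0.43, 0.54 and -0.13, inside the 1.5-fold limits. The kinases and receptors upstream had a median log2 ratio of -0.04, against 0.01 for all genes. Of 18 receptor, RAS and ERK pathway genes, 12 passed 20 CPM and none was past 1.5-fold in either direction. Over all genes 3.94% were higher and 2.79% lower, and 12 genes are too few for a count of none to be told from that. *Kit*, the stem cell factor receptor, was at 0.22 and *Mapk3*, which encodes ERK1, at -0.15.

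The upstream sequences of *Btg2* and *Zfp36* are shown because each holds a motif through which signals reach immediate early genes, the cyclic AMP response element TGACGTCA and the CArG box bound by serum response factor. Both are RefSeq promoters of build GRCm38.p6, the 250 bases before the start, 5′ to 3′ on the gene's strand, with the matched motif in capitals (*Btg2*, chr1:134079156-134079405; *Zfp36*, chr7:28379229-28379478). The RefSeq start of *Zfp36* lies inside the gene span given above, which is from GENCODE and reaches further upstream.

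Btg2: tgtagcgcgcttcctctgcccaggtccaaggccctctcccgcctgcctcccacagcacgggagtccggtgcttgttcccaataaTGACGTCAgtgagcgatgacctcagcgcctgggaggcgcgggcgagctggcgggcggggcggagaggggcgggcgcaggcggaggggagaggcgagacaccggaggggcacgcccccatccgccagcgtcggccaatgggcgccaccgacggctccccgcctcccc

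Zfp36: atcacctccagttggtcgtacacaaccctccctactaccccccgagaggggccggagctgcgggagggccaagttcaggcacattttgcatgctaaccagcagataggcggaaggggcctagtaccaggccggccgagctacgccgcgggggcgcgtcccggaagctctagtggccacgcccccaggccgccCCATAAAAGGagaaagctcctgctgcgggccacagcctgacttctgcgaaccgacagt

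In windows from 250 bases before to 50 after a start, searched on both strands for 27025 genes, TGACGTCA occurred in 2.03% of genes, the AP-1 site TGANTCA in 8.97%, and the CArG box in 1.81%. Of the 6 ranking genes 4 had a promoter in the table, and none of these held TGACGTCA, a CArG box or an AP-1 site. Of the 20 feedback genes 17 had a promoter, and 4 of these held TGACGTCA (23.5%), 2 a CArG box and 1 an AP-1 site. All 7 feedback genes that were higher had a promoter, and 2 held TGACGTCA (28.6%), 1 a CArG box and 1 an AP-1 site. TGACGTCA thus did not separate the higher feedback genes from the rest of the list. Of the 20 other immediate early factors 16 had a promoter, and 1 held TGACGTCA, 2 a CArG box (12.5%) and 1 an AP-1 site. Of the 10 factors that were higher 9 had a promoter, and none held TGACGTCA or a CArG box. The AP-1 site is shorter than the cyclic AMP response element in its centre, and no stretch can match both from the same first base. A match describes letters in this window and not a bound site.

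Among genes of at least 50 CPM, the highest ratios in IEG-high cells belonged to inducible heat shock genes. Heat shock proteins hold unfolded proteins in solution and help them refold, and the inducible forms are made when heat shock factor is active. *Hspa1a* (chr17:34969190-34972156, minus strand) stood at 1746 CPM in IEG-high cells, 407 between and 149.8 in IEG-low cells, an 11.7-fold difference (log2 3.54, 3.47 to 3.62). *Hspa1b* (chr17:34956436-34959238, minus strand) stood at 1305, 294 and 105 CPM (3.63, 3.54 to 3.72). These neighbouring genes encode the same HSP70 protein and their reads are hard to tell apart, so their sum is the safer value, at 3050.4 CPM in IEG-high, 702 between and 255 in IEG-low cells. The small chaperone *Hspb1* (chr5:135887919-135889563, plus strand) stood at 307, 90.1 and 48.0 CPM (2.68, 2.53 to 2.82), with 10 cells holding 48.4% of the IEG-high UMIs. *Dnajb1* and *Dnajb4*, co-chaperones of HSP70, had ratios of 1.35 and 1.22. The constitutive chaperones *Hspa8*, *Hsp90ab1*, *Hspd1* and *Hspa4* had ratios of 0.24, -0.04, -0.19 and -0.32. Over the 15 listed genes, all past 20 CPM, 7 were more than 1.5-fold higher and none lower, with a median of 0.44 that became -0.13 in UMIs per cell, which was 0.39 above that of all genes on that scale.

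The promoters of the strongest heat shock genes are shown because they hold the short palindrome GAANNTTC of the heat shock element, in capitals, at the same distance from the start in *Hspa1a* and *Hspa1b*. The source, build, length and direction are as above (*Hspa1a*, chr17:34972157-34972406; *Hspa1b*, chr17:34959239-34959488; *Hspb1*, chr5:135887669-135887918).

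Hspa1a: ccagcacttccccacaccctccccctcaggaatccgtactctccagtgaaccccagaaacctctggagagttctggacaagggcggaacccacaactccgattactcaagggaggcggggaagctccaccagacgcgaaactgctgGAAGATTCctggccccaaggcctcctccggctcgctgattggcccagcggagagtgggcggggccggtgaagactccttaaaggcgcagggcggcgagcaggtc

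Hspa1b: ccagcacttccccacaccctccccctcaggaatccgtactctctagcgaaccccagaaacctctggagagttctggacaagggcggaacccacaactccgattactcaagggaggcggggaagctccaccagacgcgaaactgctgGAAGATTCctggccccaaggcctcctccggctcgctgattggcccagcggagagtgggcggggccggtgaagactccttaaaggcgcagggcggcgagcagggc

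Hspb1: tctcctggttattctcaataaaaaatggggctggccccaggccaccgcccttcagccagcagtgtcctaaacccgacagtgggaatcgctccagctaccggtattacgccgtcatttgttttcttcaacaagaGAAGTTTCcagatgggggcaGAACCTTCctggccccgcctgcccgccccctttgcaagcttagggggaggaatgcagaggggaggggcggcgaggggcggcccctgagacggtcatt

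The windows of *Hspa1a* and *Hspa1b* were equal at 247 of 250 bases (98.8%). In both, the palindrome runs from base 104 to base 97 before the start, and *Hspb1* holds it 2 times. Of the 15 heat shock genes 12 had a promoter in the table, and 9 of these (75%) held GAANNTTC, against 9.04% of all 27025 genes. Among the 7 genes more than 1.5-fold higher, 5 (71.4%) held it, and *Dnajb1* and *Dnajb4* did not. *Hspe1*, *Hspd1*, *Dnaja1* and *Chordc1* held it and were inside the 1.5-fold limits, so that the motif did not separate the higher genes from the rest of the list.

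The heat shock transcripts varied widely among IEG-high cells. The median IEG-high cell held 15 *Hspa1a* and *Hspa1b* UMIs per 10000, with the middle 50% from 3 to 44.75, whereas the median IEG-low cell held 0 and the middle 50% ran from 0 to 2. Of the 278 cells highest in these 2 transcripts, 126 (45.3%) were IEG-high, against 9.98% of all eligible cells. For the other immediate early factors the same overlap was 38.1%, for the feedback genes 33.5%, for the lineage factors 28.4%, for the keratinocyte markers 13.7%, for the pigmentation genes 11.5%, and for S and G2/M genes 7.19%. Divided at their median, the 138 IEG-high cells richer in *Hspa1a* and *Hspa1b* stood at 5646 CPM and the 140 poorer at 492. The richer cells also had a higher median 6-gene share (0.583% against 0.491%) and more UMIs (18807 against 16704). Their S phase genes summed to 942 CPM against 1266 and their G2/M genes to 1957 against 2821. The poorer cells still stood at 539 CPM for *Atf3*, 79.3 for *Btg2* and 138 for *Socs3*, against 170.04, 10.7 and 17.0 in IEG-low cells. *Klf2*, *Hes1* and *Id1* were higher in the richer cells, with log2 ratios of richer over poorer of 1.75, 1.14 and 1.27, while *Nr4a1* differed by -0.01 (-0.36 to 0.34) and *Socs3* by -0.51 (-0.83 to -0.18). The genes used for ranking mattered here. With the cells ranked by *Fos*, *Jun* and *Egr1* the log2 ratio of *Hspa1a* was 3.89, with *Fosb*, *Junb* and *Ier2* it was 1.38, while that of *Atf3* was 1.73 and 1.94.

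Over 10 equal bins of the 6-gene share the groups of genes followed the ranking to different extents. *Hspa1a* stood at 76.0 CPM in bin 1 (lowest), 273 in bin 6, 629 in bin 9 and 1746 in bin 10, and *Atf3* at 90.7, 281, 390.3 and 650.0. *Btg2* stood at 4.66, 18.0, 61.9 and 139 in the same bins. The S phase and G2/M lists stayed near their mean over bins 1 to 9 and were lower in bin 10, where their median log2 values against all eligible cells were -0.65 and -0.50. Bin 10 was also the shallowest, with a median of 17663.5 UMIs per cell against 21392.5 in bin 9. With IEG-high and IEG-low cells taken within bins of total UMIs, the medians of these 2 lists were 0.10 and 0.41.

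**Figure D3:**
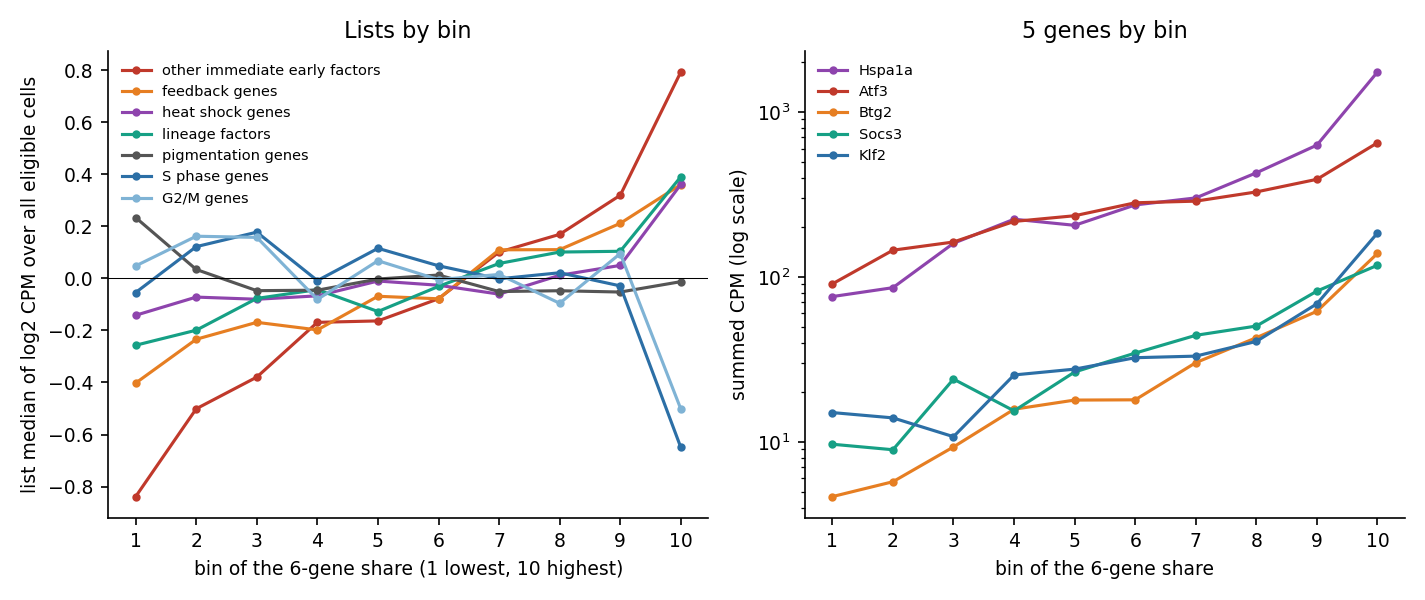
Left, median over each list's genes of log2 (CPM + 1) in a bin minus the same over all eligible cells (y axis), by bin of the 6-gene share (x axis, 278 or 279 cells each). Right, summed CPM of 5 genes on a log axis. Immediate early factors and the 5 genes follow the share along its range, whereas the cell cycle lists differ in bin 10, which also had the lowest median UMIs per cell.

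Genes on lists of BMP and TGF-β, NF-κB, and actin and YAP targets were also among those that differed. Signalling was not measured, and whether these genes rise with the immediate early genes or apart from them was not tested. *Id1*, a target of BMP signalling, stood at 78.8 CPM in IEG-high cells, 24.3 between and 9.70 in IEG-low cells (3.02, 2.71 to 3.34), although 10 cells held 52.97% of the IEG-high UMIs. Of 12 listed BMP and TGF-β targets, 7 passed 20 CPM and 5 were more than 1.5-fold higher, among them *Id1*, *Id3* (1.05) and *Bambi* (1.23), which encodes a decoy receptor, while *Tgif1*, a Smad co-repressor, was at -0.22. *Id1* passed through the IEG-high cells, and with the minimum set over the other cells 6 genes passed and 4 were higher, with a median of 0.68. *Socs3*, a feedback inhibitor of cytokine receptors listed with the NF-κB targets, stood at 118, 52.6 and 17.0 CPM (2.79, 2.55 to 3.04). Of the 17 genes of that list 3 passed 20 CPM, *Nfkb1* through the IEG-high cells, and *Nfkbia*, which encodes the NF-κB inhibitor, was at 0.56. Cytokine genes of the list were sparse, and *Cxcl1*, the most abundant, stood at 6.83 and 3.02 CPM (1.18, 0.32 to 1.99) from 19 and 42 UMIs. *Ccn1*, a matricellular protein driven by serum response factor and YAP, stood at 631, 305 and 149 CPM (2.09, 1.99 to 2.18), and *Rhob*, a small GTPase, at 182, 85.4 and 58.0 (1.65, 1.49 to 1.81). *Ccn2*, a relative of *Ccn1* under 20 CPM over all eligible cells, stood at 55.0 and 9.84 CPM in IEG-high and IEG-low cells (2.48, 2.14 to 2.83). Of the 10 actin and YAP targets past 20 CPM, 3 were higher (*Ccn1*, *Rhob* and *Amotl2* at 0.62) and 2 lower (*Tpm1* at -0.67 and *Flna* at -0.74), and the median of the 10 was -0.18. Within bins of total UMIs *Amotl2* was at 0.49 and *Flna* at -0.34, inside the 1.5-fold limits. Of 16 Wnt targets 6 passed 20 CPM, none was higher, and *Ccnd1*, which encodes cyclin D1, was lower at -0.59, but at -0.09 within bins of total UMIs. Of 13 genes of the unfolded protein and integrated stress responses 9 passed 20 CPM, none was higher and 1 was lower, *Asns*, which makes asparagine, at -0.66, and at -0.39 within the bins. Of 14 p53 and arrest genes 5 passed, and 2 were higher, *Plk2* at 1.41 and *Gadd45b* at 0.61 (1.45 and 0.29 within the bins), while *Cdkn1a*, the p53 target p21, was at -0.37. Over all genes 3.94% were higher and 2.79% lower. The Wnt and stress response lists are too short for counts of none or 1 to be told from those shares.

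Pigmentation genes were near equal in the groups with 2 exceptions. Melanin is made by *Tyr*, *Tyrp1* and *Dct* inside melanosomes, and *Mlph* and *Rab27a* move the melanosomes along actin. Of 15 pigmentation genes 14 passed 20 CPM, 2 were more than 1.5-fold higher and none lower, and the median was -0.10. *Mitf*, the master regulator of the lineage (chr6:97807052-98021349, plus strand), stood at 679 CPM in IEG-high cells, 478 between and 363 in IEG-low cells (0.90, 0.83 to 0.98). *Mlph* stood at 276, 207 and 169 CPM (0.71). Within bins of total UMIs *Mitf* was at 0.92 and *Mlph* at 0.55, the latter inside the 1.5-fold limits. *Tyrp1* and *Pmel*, the melanosome matrix protein, were at 0.07 and 0.05, and *Mlana* and *Trpm1*, a melanocyte channel, at -0.38 and -0.44. Among lineage factors 9 of 11 passed 20 CPM and 1 was more than 1.5-fold higher, beside 3.94% of all genes. It was *Pax3* (chr1:78101267-78197134, minus strand), at 582, 418 and 329 CPM (0.82, 0.74 to 0.91). The remaining 8, *Sox10*, *Foxd3* and *Zeb2* among them, lay between 0.12 and 0.57, and the list median of 0.53 was -0.03 in UMIs per cell, where the median of all genes was -0.53. Of 6 stem cell genes on a list picked from these same libraries, and so not independent of them, *Hspa1a* and *Txnip*, an inhibitor of thioredoxin at 439, 206 and 146 CPM (1.59), were past 1.5-fold, while *Cd9*, *Col12a1*, *Cdh1* and *Sept4* lay between -0.07 and 0.42.

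Cell cycle genes were lower in IEG-high cells in the comparison over all depths. Of 43 S phase genes 28 passed 20 CPM, 19 were more than 1.5-fold lower and none higher, with a median of -0.76. Of 52 G2/M genes 35 passed, 17 were lower and none higher, with a median of -0.58. *Mcm5*, a subunit of the replicative helicase, stood at 24.8, 51.8 and 61.6 CPM (-1.31, -1.69 to -0.96), and *Ccnb2*, a mitotic cyclin, at 29.9, 52.5 and 67.0 (-1.17). This did not hold among cells of like depth. With IEG-high and IEG-low cells taken within each of the 5 bins of total UMIs, 0 of 28 S phase genes were past 1.5-fold lower and the median was 0.10, and 8 of 35 G2/M genes were higher with a median of 0.41. Among the 217 IEG-high and 826 IEG-low cells with no UMI of the proliferation genes *Mki67* and *Top2a*, the S phase median was -0.48 and the G2/M median -0.03. Both genes are on the G2/M list, so this choice of cells bears on the G2/M median, and nothing is concluded from it. Over all tested genes, 162 were higher within the bins of total UMIs in place of 216, of which 115 were shared. The number lower was 38 in place of 153, of which 22 were shared, and 73.7% of IEG-high cells were the same. Within the bins the immediate early factors (0.95), the feedback genes (0.57), the heat shock genes (0.42) and the lineage factors (0.44) had medians above that of all genes (0.04). Among the 12 lowest genes, *Cst6* and *Cxcl9* rested on few cells. A single IEG-low cell held 57.3% of that group's *Cst6* UMIs, a single IEG-high cell held 96.1% of its group's *Cxcl9* UMIs, and 10 IEG-low cells held 88.7% of theirs. *Cxcl14* was more evenly spread, with 17.1% of its IEG-low UMIs in 10 cells.

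**Figure D4:**
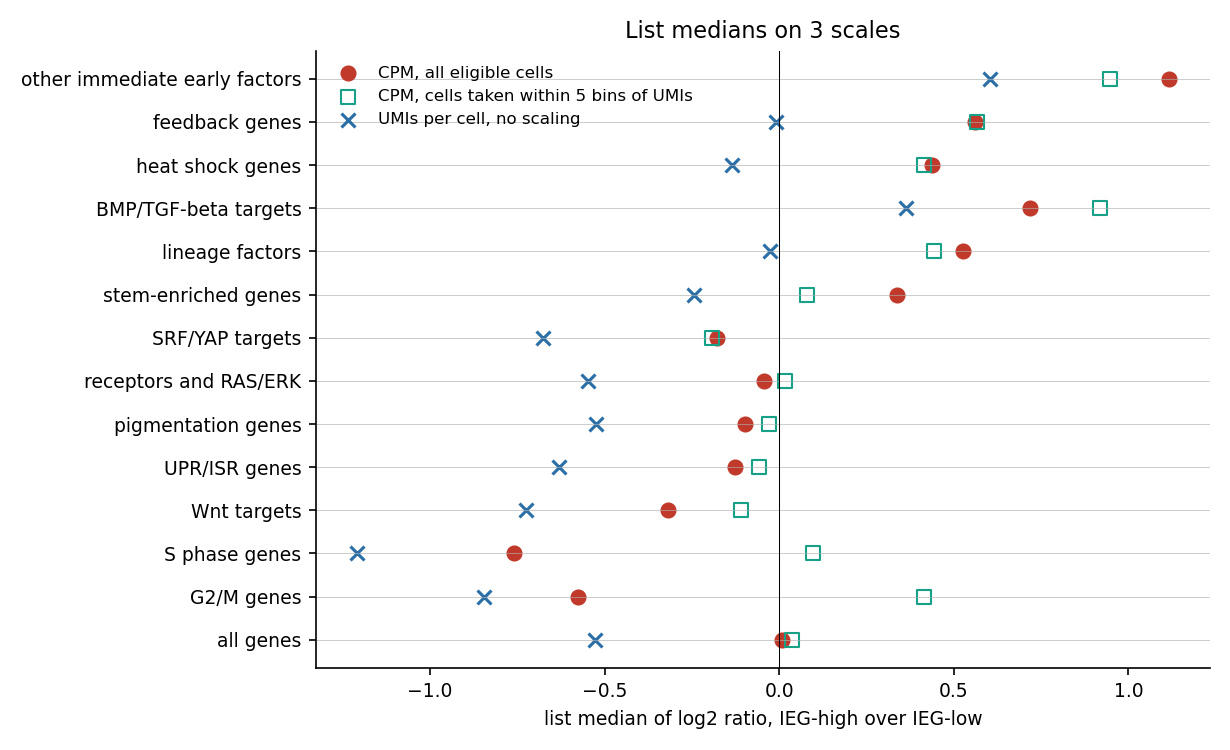
List medians of the log2 ratio of IEG-high over IEG-low cells (x axis) on 3 scales: CPM over all eligible cells (filled red), CPM with the cells taken within 5 bins of total UMIs (open green) and mean UMIs per cell without scaling (blue crosses). The S phase median is -0.76, 0.10 and -1.21 in that order, while the immediate early factors stay above 0 on each scale at 1.12, 0.95 and 0.60.

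The same rule was applied to the 3287 bulb cells that met the same limits. The upper 329 bulb cells had 6-gene shares from 0.337 to 1.99%, and 258 bulb cells (7.85%) were above the early-anagen limit. Of 4772 bulb genes at 20 CPM, 60 (1.26%) were more than 1.5-fold higher and 25 (0.524%) lower. With the minimum set over the bulb cells outside the upper 329, 4766 genes passed, 56 were higher and 25 lower. Among 4113 genes tested in both libraries, 23 were higher in both, which is 21.1% of the 109 higher in early anagen and 48.9% of the 47 higher in the bulb. Of the same genes 9 were lower in both, from 64 lower in early anagen and 22 lower in the bulb. *Atf3* had log2 ratios of 1.93 and 4.70 in early anagen and bulb, *Zfp36* 2.45 and 1.94, and *Dusp1* 1.83 and 2.14. *Btg2*, at 16.6 CPM in the bulb and so under the limit there, had 3.70 and 3.74. All 5 immediate early factors past 20 CPM in the bulb were more than 1.5-fold higher there, and so were 7 of 10 feedback genes. *Atf3* and *Dusp10* passed there through the cells high in the 6 genes, and with the minimum set over the other bulb cells 4 of 4 factors and 6 of 9 feedback genes were higher. Of the 12 heat shock genes past 20 CPM in both libraries, none was higher in the bulb and 1, *Hsph1*, was lower, with a median of -0.07, whereas 4 of these 12 were higher in early anagen, with a median of 0.28. *Hspa1a* and *Hspa1b* stood at 4.90 and 0.18 CPM over all eligible bulb cells, below the 20 CPM limit. *Hspa1a* had a bulb ratio of 0.04 (-0.84 to 0.82), an interval that passes 1.5-fold in both directions. *Hspb1*, at 5.93 CPM also below the limit, had a bulb ratio of 3.28 (2.42 to 4.19) against 2.68 in early anagen. *Mitf*, *Pax3* and *Mlph* had ratios of 0.90, 0.82 and 0.71 in early anagen and -0.01, 0.08 and -0.12 in the bulb. Several keratinocyte markers were also higher in the bulb cells high in the 6 genes. *Krt17*, the 1 marker past 20 CPM there, had a bulb ratio of 4.09 (3.66 to 4.53). Of those under the limit, *Perp*, *Sfn* and *Dsp* had 3.06, 2.32 and 4.74, while *Krt10* had -0.52 (-1.04 to -0.03). The part of keratinocyte transcripts in the bulb results was not tested. These are 2 libraries that differ in kit, age, depilation, stage and dissociation, and the differences between their ratios were not tested.

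**Figure D5:**
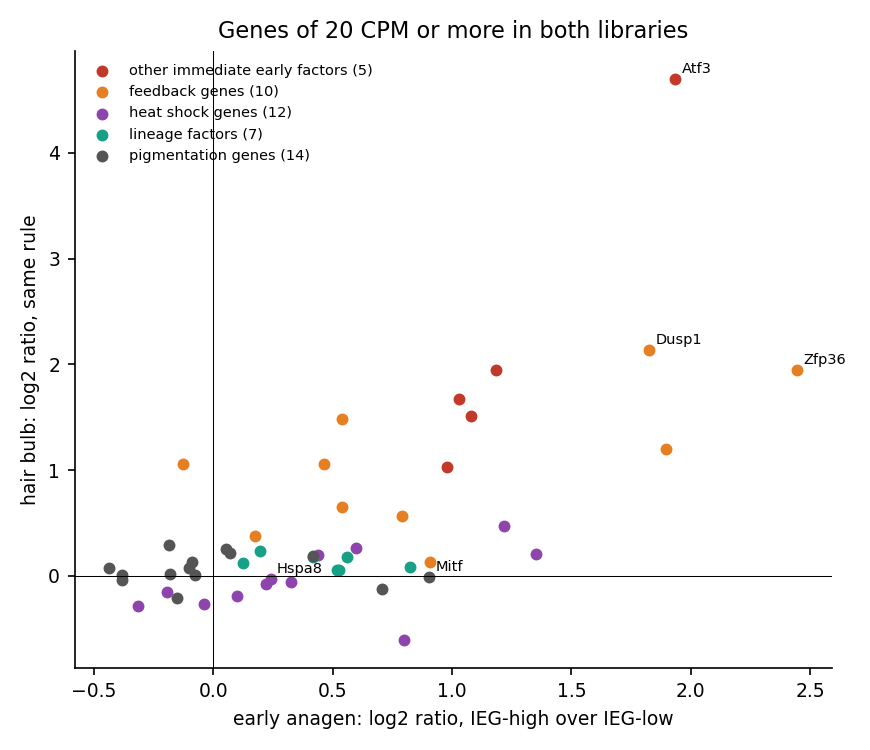
Log2 ratio of cells high over cells low in the 6 genes, in early anagen (x axis) and in the hair bulb (y axis), for genes of 5 lists with at least 20 CPM in both libraries. Each point is a gene, coloured by list, with the number of genes in brackets. The 5 immediate early factors lie high on both axes, with *Atf3* at 1.93 and 4.70. Feedback genes spread from *Dusp10* at -0.13 and 1.06 to *Zfp36* at 2.45 and 1.94, and lineage, pigmentation and heat shock genes lie nearer 0 on the y axis. *Atf3* and *Dusp10* reached 20 CPM in the bulb only through the cells high in the 6 genes, and with the minimum set over the other bulb cells 4 factors passed.

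Barcodes with few UMIs also held these transcripts. Those with 1000 UMIs or fewer, 1976 in number, held the 6 genes at 1539 CPM and *Hspa1a* and *Hspa1b* at 669.8 CPM when summed, against 1532 and 608 CPM over the eligible cells. The part of free RNA in the results was not tested.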

How the data were processed

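The 2 10x Genomics 3′ libraries were used (v3 kit for early anagen, v2 for the bulb). The authors made the deposited files with Cell Ranger 6.0.1 on mm10, per the submitters' processing notes. The deposited values are raw UMI counts per gene and barcode. The early-anagen library held 116800173 UMIs and the bulb library 58161397. Members and gene lists were chosen with earlier results of these data known, and 4 lists of the closing section after their values were seen.

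Each eligible cell was thinned without replacement to 10000 UMIs (seed 1), which gave 2780000 UMIs for IEG-high and 13920000 for IEG-low cells. Counts were summed per group and scaled to CPM. Genes under 20 CPM over all eligible cells, and the 6 ranking genes, were left out of counts and medians. A log2 ratio of 2 sums has an exact 95% interval, conditional on their total, which covers counting error only, since cells of 1 library are not replicates. Therefore no test was run and no p-value is given. List medians are printed without an interval. Genes named are the listed genes and the 12 highest and 12 lowest of at least 50 CPM, without mitochondrial, ribosomal protein and model-number genes. One listed symbol had several identifiers, of which that with the most UMIs was used. Gene positions are from GENCODE and promoters from RefSeq, both on GRCm38. No doublet caller was run, and leaving out the cells above the 95th percentile of UMIs was an alternative. TMM factors were from edgeR 4.0.16. The calculation of the ratio and its interval was checked on simulated counts. Some genes of the lists are not reported here.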

Additional observations from a re-analysis of the deposited data

Results flagged for a closer look

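The list of actin and YAP targets had a median log2 ratio of -0.18 in early anagen and 0.27 in the bulb, which differ in sign (-0.18 and 0.27 also over the 6 genes past 20 CPM in both), and this difference was not tested. The early-anagen median ran from -0.68 to 0.16 over the alternatives and kept its sign in 19 of 20. Among barcodes set aside by the mitochondrial limit alone, 274 in number, 18.6% exceeded the lower limit of the IEG-high group, against 9.98% of the eligible cells.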

How the results depend on the processing

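Over the alternatives, the median of the other immediate early factors stayed above 0, from 0.60 to 1.31, and 32 of 35 named genes kept their sign. The numbers of genes higher and lower were 127 and 259 with edgeR TMM scaling, which moved the median of all genes to -0.11, 360 and 262 with the top 5% as IEG-high, 119 and 35 with the top 20%, 448 and 256 at a minimum of 10 CPM, 57 and 70 at 50 CPM, and 52 and 32 at 2-fold. In mean UMIs per cell, an alternative chosen after seeing the data, they were 37 and 2225, with medians of 0.60 for the immediate early factors, -0.13 for the heat shock genes and -0.52 for the pigmentation genes. Another seed kept 161 of the 216 genes higher and 124 of the 153 lower. With the 20 CPM minimum set over cells that are not IEG-high, also chosen after seeing the data, 200 genes were higher and 156 lower. Against all other eligible cells 137 genes were higher. Within 5 bins of total UMIs 162 genes were higher and 38 lower, and above 15000 UMIs 148 and 59. The median of the immediate early factors was 1.31 with the top 5%, 0.92 with the top 20%, 0.93 against all other cells, 0.94 ranked by *Fos*, *Jun* and *Egr1*, 0.95 within the bins and 0.89 above 15000 UMIs. Ranked by *Fosb*, *Junb* and *Ier2*, the heat shock median was 0.15 and the pigmentation median -0.28, and at 50 CPM the heat shock median was 0.24. Within the bins the S phase median reversed to 0.10, *Pclaf* to 0.26, *Rrm2* to 0.43 and *Cxcl9* to 0.026, and *Cxcl9* was 0.85 when ranked by *Fosb*, *Junb* and *Ier2*; the cause was not tested. For cells with no *Krt10* and no *Krt14* UMI, 255 genes were higher and 200 lower. No paired analysis was possible because each condition is 1 library.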

Other observations

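The following 4 lists were chosen after their values were seen and are given as a description. Over all genes 3.94% were more than 1.5-fold higher and 2.79% lower. Of 12 glycolysis genes 10 passed 20 CPM, 3 were more than 1.5-fold lower in IEG-high cells and none higher, with a median log2 ratio of -0.46, and -0.31 within 5 bins of total UMIs, where none was past 1.5-fold. *Pgk1*, which makes ATP in glycolysis, was at -0.76 and *Ldha*, lactate dehydrogenase, at -0.60. Of 12 interferon genes 10 passed, 2 were higher and 1 lower, with a median of 0.21 that was -0.35 in UMIs per cell. *Irf1* passed through the IEG-high cells, and with the minimum set over the other cells 9 genes passed, 1 was higher and the median was 0.03. *Ifit3* was at 1.55, with 32.7% of its IEG-high UMIs in a single cell. Of 9 Notch genes 4 passed and *Hes1*, a Notch target, was the 1 past 1.5-fold, at 2.05. The others that passed were *Notch1*, *Notch2* and *Rbpj*. Of the listed genes under 20 CPM, *Hey1* was at 1.54 (0.92 to 2.14) within the bins, *Nrarp* at 1.04 (0.59 to 1.48) and *Heyl* at 2.31 (-0.59 to 5.21). Over the alternatives the *Hes1* ratio ran from 0.36, inside the 1.5-fold limits, to 2.43. Of 5 MHC class I genes all 5 passed, 1 was higher, *H2-T23* at 0.74 (0.31 within the bins, where none was past 1.5-fold), and the median of 0.38 was -0.16 in UMIs per cell.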
